A study of Mus musculus with 6 samples.

Results

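ATF3 ChIP-seq peaks of mouse macrophages that lie on tandem repeats with a repeat unit of 5 or more letters were examined, with the unit of the vertebrate telomere, TTAGGG or CCCTAA on the other strand, set apart from all other units. A peak was taken as a member where the authors' annotation at its centre named a simple repeat with such a unit. Of 11888 peaks in the 3 standard lists, 429 were members. The unstimulated list contributed 138 of its 2779 peaks, the HDL list 155 of 5319 and the HDL + CpG list 136 of 3790. The telomere unit accounted for 82, 86 and 84 of them, and 28 other unit classes for the remaining 56, 69 and 52, where units that are rotations or reverse complements of each other form 1 class. The tags did not enter this choice, although the standard peaks themselves had been called from WT reads.

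The peaks came from bone marrow-derived macrophages (BMDMs), primary cells grown from marrow of C57BL/6 mice aged 6 to 8 weeks over 6 days with the growth factor M-CSF at 40 ng/ml. Cells of WT mice (Atf3 +/+) and of ATF3-deficient mice (Atf3 -/-, KO) were left unstimulated, or received HDL, a lipoprotein that takes up cholesterol, at 2 mg/ml over 6 h, or the same HDL treatment followed by CpG, a DNA ligand of Toll-like receptor 9, at 100 nM over 4 h. A rabbit polyclonal antibody against ATF3 (2.5 µg) was used in both genotypes, and fragments of 150 to 250 bp were sequenced. For the standard lists the peak caller saw the WT library only. For the KOIN lists (KO implemented normalization) the KO library served as its control, and the WT/KO tag ratio had to reach 2. The authors also excluded WT peaks that met a peak called in the KO library with the WT library as control. The labels name 3 biological replicates per group, which the authors concatenated, so each group is 1 pooled library of 37137377 to 75534584 reads. Values therefore have no spread between mice or cultures, and tests compare libraries and not replicated conditions. All intervals are 95% intervals. Those of ratios cover counting error of reads only. Those of shares treat peaks as independent, although members with the same unit may share reads. The KO library held 2.03 times the reads of the WT library in unstimulated cells, 1.74 times with HDL and 0.96 times with HDL + CpG. Relative depth thus differs between the conditions, and its effect on the WT/KO ratios was not tested.

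Telomere repeats cap the ends of chromosomes, where the enzyme telomerase adds them and the shelterin proteins bind them. Arrays of the same unit also lie inside the arms of mammalian chromosomes, where they are called interstitial telomeric sequences. Simple repeats of other units expand and contract by slippage during replication. ATF3, a basic leucine zipper factor induced by stress, binds AP-1 sequences (TGAGTCA, or TGACTCA on the other strand) and CRE sequences (TGACGTCA), and the telomere unit does not contain them. Reads of a tandem repeat can match many loci. The authors kept such reads at 1 best position each, so members with the same unit share their sequence and may share reads, and they are not independent measurements of ATF3.

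Sites of other units are shown, to let the frequent units be seen beside Csrp2 and Fat1. Csrp2 was most like the telomere unit in height and ratio, and Fat1 differed from it with HDL + CpG. Sequences are of the plus strand of mm9 (NCBIM37), 5′ to 3′, named by the nearest gene. Capitals mark the longest perfect stretch of the named unit, and 15 bases of flank on each side are in lower case. For Fat1 they mark each complete copy of the annotated TTGGGG, since a further T stands between the copies and the longest perfect stretch is 8 bp, with more of the left flank shown.
Cdh26 (TCTCTG), chr2:178374274-178374332: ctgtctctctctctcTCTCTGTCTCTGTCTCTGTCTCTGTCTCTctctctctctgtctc
9430014N10Rik (TCTCC), chr15:93712391-93712512: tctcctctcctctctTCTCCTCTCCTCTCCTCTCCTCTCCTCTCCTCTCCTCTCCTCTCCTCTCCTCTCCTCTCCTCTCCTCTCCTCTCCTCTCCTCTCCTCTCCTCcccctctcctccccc
2700054A10Rik (CTGTG), chr17:13743556-13743624: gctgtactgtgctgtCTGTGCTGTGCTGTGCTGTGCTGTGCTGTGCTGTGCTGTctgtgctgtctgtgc
Csrp2 (TCTTG), chr10:110348666-110348737: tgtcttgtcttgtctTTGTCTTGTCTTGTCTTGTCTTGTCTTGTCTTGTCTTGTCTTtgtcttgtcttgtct
Fat1 (TTGGGG), chr8:45784262-45784389: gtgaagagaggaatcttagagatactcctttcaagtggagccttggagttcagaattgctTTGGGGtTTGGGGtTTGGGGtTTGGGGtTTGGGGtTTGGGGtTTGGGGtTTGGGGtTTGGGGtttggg

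The question behind the KOIN lists was which WT peaks stand above the signal that the same antibody gives in cells without ATF3. At peaks on the telomere unit, the KO library held a large part of the WT signal in unstimulated cells, a smaller part with HDL, and as much as the WT library with HDL + CpG. Tags are reads in the peak scaled by the authors to 10000000 per library. The median over the telomere-unit peaks was 118 WT and 66.2 KO tags in unstimulated cells, 131 WT and 44.4 KO tags with HDL, and 85.8 WT and 82.1 KO tags with HDL + CpG. The median WT/KO ratio was 1.75 (quartiles 1.64 and 1.85, n = 82), 2.95 (2.76 and 3.13, n = 86) and 1.01 (0.944 and 1.08, n = 84). Over all standard peaks it was 1.66, 2.41 and 1.42.

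The ratios of the telomere-unit peaks were narrowly spread. Their log2 WT/KO had an SD over peaks of 0.18, 0.26 and 0.21, where counting alone gives a median standard error per peak of 0.09, 0.11 and 0.10. Over all standard peaks the SDs were 0.64, 0.69 and 0.86 and the median standard errors 0.31, 0.34 and 0.34, so part of their wider spread is counting error. The lowest and highest ratios were 1.2 and 2.67 in unstimulated cells, 1.79 and 5.68 with HDL, and 0.467 and 1.54 with HDL + CpG. Peaks annotated with TTAGGG and with CCCTAA on the plus strand had similar medians, at 1.78 (n = 38) and 1.73 (n = 44) in unstimulated cells, 2.92 (n = 39) and 2.96 (n = 47) with HDL, and 1.05 (n = 42) and 0.976 (n = 42) with HDL + CpG. Nor did the level of signal set the ratio apart. The 43 peaks with more tags had a median of 3.02 with HDL and the 43 with fewer tags one of 2.87, though their median WT tags were 202 and 35.3.

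**Figure D1:**
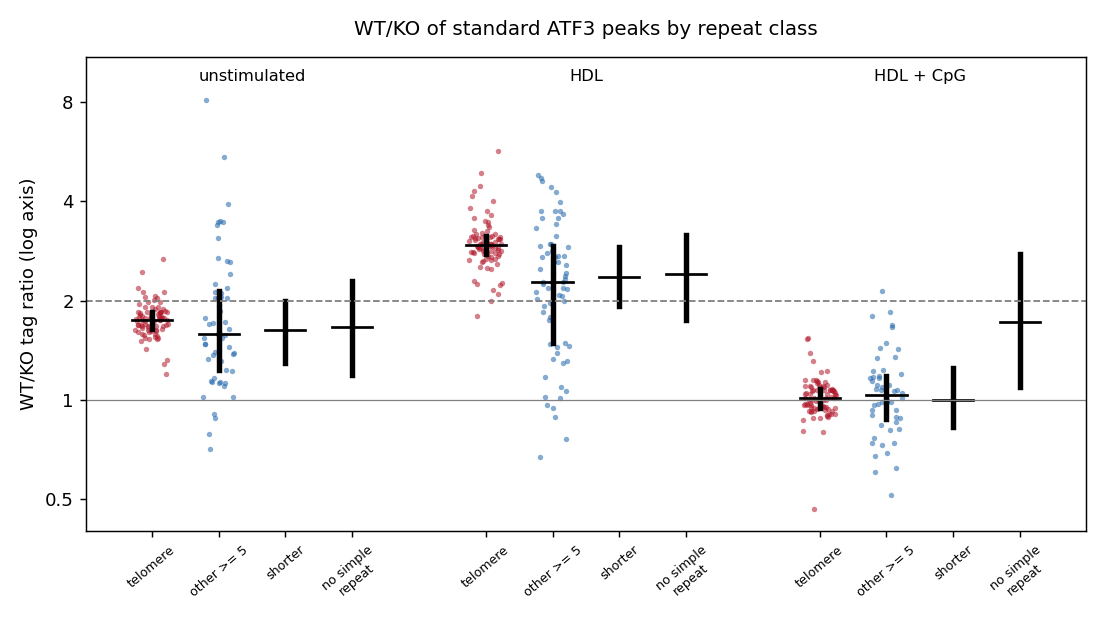
WT/KO tag ratio (log axis) of standard peaks by repeat class and condition; points are single peaks, horizontal lines medians and thick bars quartiles, and the dashed line is the ratio of 2 that KOIN requires. Telomere-unit peaks lie in a narrow band that has a median of 1.75 in unstimulated cells, 2.95 with HDL and 1.01 with HDL + CpG, while peaks away from simple repeats have a median of 1.72 with HDL + CpG.

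With these ratios, KOIN kept the telomere-unit peaks almost only with HDL. A peak counts as kept where a KOIN peak of the same condition overlaps it by at least 1 bp. In unstimulated cells 5 of 82 were kept (6.1%, Wilson interval 2.63 to 13.5%), against 20.7% of all standard peaks. With HDL 67 of 86 were kept (77.9%, 68.1 to 85.4%), against 54.9% of all. With HDL + CpG 0 of 84 were kept (0%, up to 4.37%), against 29.7% of all. Of the peaks on GA or TC repeats, KOIN kept 7.2%, 58.1% and 0.836%, and of those on all units under 5 letters 13.5%, 54.8% and 2.38%. A high share with HDL and a very low one with HDL + CpG was thus not particular to the telomere unit. Every KOIN peak annotated with the telomere unit, 5, 67 and 0 in the 3 lists, overlapped a standard peak.

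WT and KO reads were compared peak by peak with a two-sided exact binomial test at the share set by the library totals, adjusted by Benjamini-Hochberg over all standard peaks of the list. The standard peaks had been called from the same WT reads, which favours calls of more WT reads at members and at all other standard peaks. In unstimulated cells 78 of the 82 telomere-unit peaks had more WT reads (95.1%) and 0 more KO reads, where 56.2% and 0.9% of all standard peaks did. With HDL 86 of 86 had more WT reads and 0 more KO reads, against 79.5% and 0.902% of all. With HDL + CpG 1 of 84 had more WT reads (1.19%) and 2 had more KO reads (2.38%), against 40.9% and 2.85% of all. The counts depend on the scaling. When the median WT/KO of the standard peaks that KOIN removed (1.49, 1.7 and 1.12, on the log2 scale 0.58, 0.76 and 0.16) was set to 1, telomere-unit peaks with more WT reads numbered 33, 73 and 0, and those with more KO reads 0, 0 and 22. Of all standard peaks, 16.9%, 29.4% and 34.2% then had more WT reads and 12.6%, 8.69% and 7.92% more KO reads. On that scale the median ratios of the telomere-unit peaks were 1.17, 1.74 and 0.901.

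In unstimulated cells the 4 telomere-unit peaks with no call lay near Slc25a13 (20.2 WT and 16.8 KO tags), Col4a6 (5.92 and 4.63), Isl1 (14.8 and 10.5) and Sympk (9.42 and 6.22), and were named after their values were seen, as were the peaks in the next sentence. With HDL + CpG the peaks with more KO reads lay near 5031425F14Rik (7.08 WT and 15.2 KO tags, ratio 0.467) and Ajap1 (146 and 166, ratio 0.878), and the 1 with more WT reads near Cdh12 (239 and 216, ratio 1.1).

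Among the 82 unstimulated peaks, 9 had a ratio of 2 or more, and KOIN kept 5 of them and removed 4. The kept ones had ratios of 2.01 to 2.44. One lay in intron 6 of 8 of 6030407O03Rik (chromosome 1, 73899721 to 73900734), with the start site 10.8 kb away, and its 239 WT against 116 KO tags gave 2.06 (exact interval 1.88 to 2.27). One lay in intron 1 of 11 of Map2k6, which encodes a kinase that activates p38, with 119 WT and 58.6 KO tags (2.03, 1.77 to 2.32). The peak 98.1 kb from Lphn2, an adhesion receptor gene, had 157 and 78.1 tags (2.01, 1.79 to 2.25). The peak nearest to Agxt2l2, 129 kb away, had 31.5 and 15.4 tags (2.05, 1.57 to 2.68), and the one 16.2 kb from Jazf1, a zinc finger gene, had 8.08 and 3.31 tags (2.44, 1.39 to 4.33). The lower limits of the 5 intervals lay below 2, and the 4 removed peaks with a ratio of at least 2 reached 2.67, so kept and removed peaks overlapped in their ratios.

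At the same 5 sites HDL gave higher ratios and HDL + CpG, where a peak was listed, ratios near 1. For 6030407O03Rik they were 4.47 (289 WT and 64.8 KO tags, kept) with HDL and 0.907 (150 and 166, removed) with HDL + CpG. For Map2k6 they were 2.7 (139 and 51.5, kept) and 1 (88.1 and 88, removed). Lphn2 had 2.79 (176 and 63.3, kept) and 0.937 (115 and 123, removed), and Agxt2l2 had 3.32 (38.8 and 11.7, kept) and 1.15 (22 and 19.2, removed). Jazf1 had 5.68 (9.49 and 1.67, kept), the highest ratio of a telomere-unit peak with HDL, and no standard peak with HDL + CpG. That ratio rested on 36 WT and 11 KO reads.

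The 67 kept peaks of the HDL list had ratios of 2.09 to 5.68 (median 3.02) and the 19 removed ones of 1.79 to 3.38 (median 2.76). Of the 19 removed, 18 also had a ratio of 2 or more. The groups differed more in height, with a median of 162 WT tags among the kept and 37.7 among the removed, although the removed ranged up to 219 and the kept down to 6.06. The lowest ratios belonged to the peaks near Pcdh20 (10.3 WT and 5.75 KO tags, ratio 1.79, removed), A930005H10Rik (6.06 and 3.03, ratio 2, removed) and Creb3l1 (89.1 and 42.5, ratio 2.09, kept), which were named after their values were seen.

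**Figure D2:**
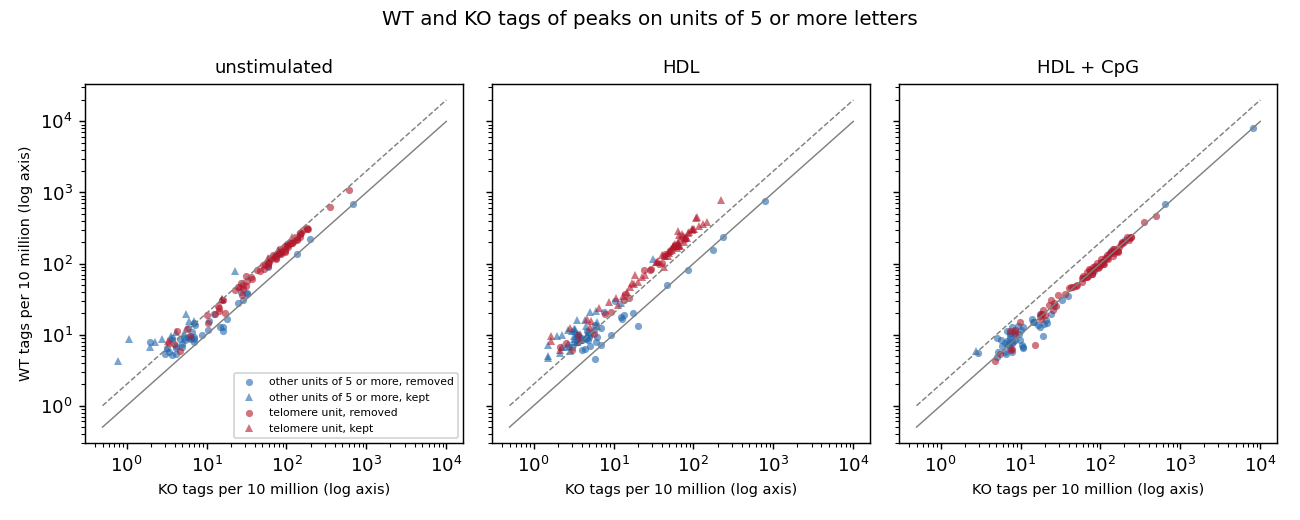
WT against KO tags per 10000000 (log axes) of every member peak in the 3 conditions, with triangles for peaks kept by KOIN and circles for removed ones; the solid line is equality and the dashed line a ratio of 2. Telomere-unit peaks run parallel to the lines over the whole range of tags, just below the dashed line in unstimulated cells (median ratio 1.75), above it with HDL (2.95) and on the line of equality with HDL + CpG (1.01).

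The 6 telomere-unit sites with the most WT tags repeated this pattern one by one. At the site 110 kb from G530011O06Rik on the X chromosome (166526991 to 166527655), the tags were 1090 WT and 614 KO in unstimulated cells, 1360 and 451 with HDL, and 874 and 860 with HDL + CpG. The ratios were 1.78 (1.7 to 1.85), 3.01 (2.88 to 3.15) and 1.02 (0.973 to 1.06). The site 369 kb from Galnt5, a glycosyltransferase gene (chromosome 2, 57481365 to 57482635), had 616 and 346, then 773 and 223, then 471 and 498 tags, with ratios of 1.78, 3.46 and 0.945. WT tags were thus highest and KO tags lowest with HDL at both, and WT and KO tags differed little with HDL + CpG.

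Near 4930529K09Rik (chromosome 14, 86598294 to 86599482) the ratios were 1.77 (441 WT and 249 KO tags), 2.91 (562 and 193) and 1.07 (378 and 353). The site 545 kb from Cdh12, a cadherin gene (chromosome 15, 21586067 to 21586505), had ratios of 1.77 (282 and 159), 4.01 (449 and 112) and 1.1 (239 and 216). In intron 2 of 15 of Ppp1r9a, which encodes an actin-binding protein of synapses (chromosome 6, 4873323 to 4874579), they were 1.73 (311 and 180), 4.15 (444 and 107) and 1.1 (268 and 244). On the Y chromosome near Gm3376 (2651685 to 2652860) they were 1.73 (315 and 182), 2.66 (390 and 147) and 0.966 (251 and 260). KOIN kept all 6 sites with HDL only. Some peaks of these sites are annotated as intergenic, intron or another repeat at their centre and are therefore not among the members of that list, although the site is the same.

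Peaks were compared between conditions at sites, formed by joining overlapping peaks of the 3 lists. The telomere unit gave 140 sites, and 122 of them had a standard peak in all 3 lists, whatever its annotation there. At these 122 sites the ratio was highest with HDL, lower in unstimulated cells and lowest with HDL + CpG at 119 (97.5%). That order held at 50% of the 1434 unstimulated peaks that were not members and had a peak in both other lists, which had medians of 1.5, 2.13 and 1.04. Their medians thus follow the same order. Most standard peaks hold fewer reads than telomere-unit peaks, and their larger counting error can break the order more often. Summed over the 122 sites, WT tags were 16203, 20212 and 12949 and KO tags 9300, 6674 and 12964, a ratio of sums of 1.74, 3.03 and 0.999. The peaks covered 111, 112 and 114 kb, or 147, 181 and 114 WT and 84.1, 59.8 and 114 KO tags per kb. From unstimulated cells to HDL, the WT sum thus went up while the KO sum went down, and with HDL + CpG the WT sum was the lowest and the KO sum the highest of the 3. KOIN kept 7, 99 and 0 of these sites.

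**Figure D3:**
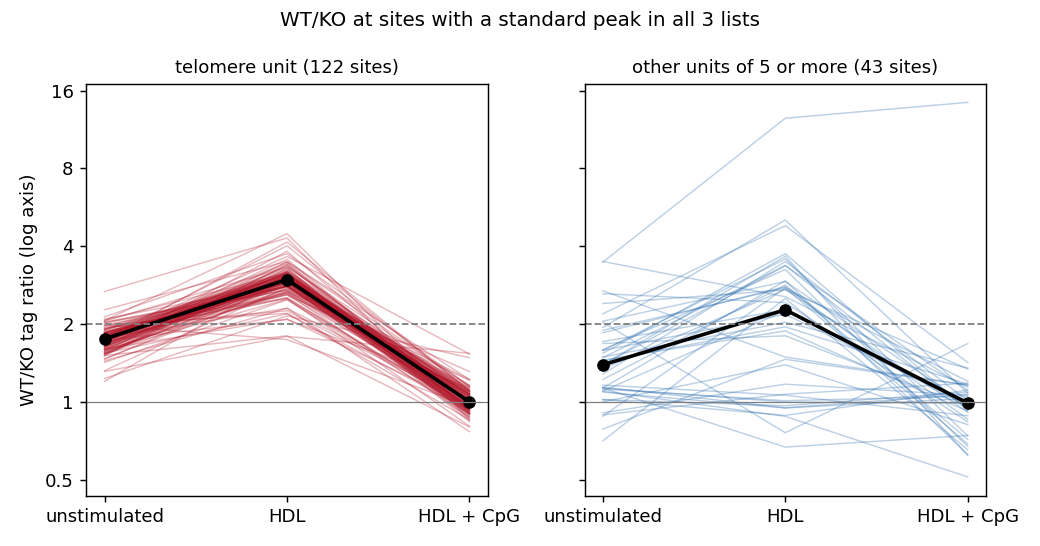
WT/KO tag ratio (log axis) at each site with a standard peak in all 3 lists, with 1 line per site, the median in black and the ratio of 2 dashed. Of the 122 telomere-unit sites 121 are highest with HDL, and of the 43 sites of other units 28 are.

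The difference between conditions was tested at each pair of overlapping peaks with a two-sided exact conditional test of the 4 read counts, adjusted over all shared peaks of the lists. Between unstimulated cells and HDL, 89 of 113 telomere-unit pairs had a higher ratio with HDL and 0 a higher one in unstimulated cells, against 19.1% and 2.59% of all 2011 pairs. Between unstimulated cells and HDL + CpG, 95 of 110 were higher in unstimulated cells and 0 with HDL + CpG, against 25.1% and 2.52% of 1749. Between HDL and HDL + CpG, 104 of 108 were higher with HDL and 0 with HDL + CpG, against 33.1% and 2.67% of 2394. The median quotient was 0.586 for unstimulated cells over HDL, 1.73 for unstimulated cells over HDL + CpG and 2.95 for HDL over HDL + CpG. These comparisons share libraries, and telomere-unit peaks hold more reads than most peaks, which lets the same quotient pass more often.

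The level of the telomere-unit sites hardly changed its order between conditions. Over the 122 sites, Spearman's rho of WT tags was 0.994 between unstimulated cells and HDL, 0.995 between unstimulated cells and HDL + CpG, and 0.995 between HDL and HDL + CpG. The sites share their sequence and may share reads, and these values are a description. The median MACS score of telomere-unit peaks was 227, 260 and 237, against 58.8, 58.3 and 56.5 over all standard peaks, and their median width 1004, 992 and 1004 bp.

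Telomere-unit peaks with a longer perfect stretch of the unit held more tags. The longest perfect stretch had a median of 62 bp in unstimulated cells (20 to 270 bp), 59.5 bp with HDL and 61.5 bp with HDL + CpG, and a peak held a median of 15, 14.5 and 14 complete copies. It lay within 100 bp of the peak centre in 72 of 82, 77 of 86 and 74 of 84 peaks. Spearman's rho between stretch and WT tags was 0.805, 0.793 and 0.805, whereas that between the number of complete copies and WT tags was lower, at 0.333, 0.203 and 0.26. With HDL, median WT tags were 14.1 for 22 peaks with a stretch under 50 bp, 103 for 36 peaks of 50 to 69 bp and 209 for 28 peaks of 70 bp or more, where the limits were chosen after the values were seen. Median KO tags were ordered alike, at 5.53, 35.3 and 71.1, and the median WT/KO was 2.93, 2.9 and 3. KOIN kept 72.7%, 69.4% and 92.9% of the 3 groups.

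In the mm9 reference, 251 loci hold at least 4 perfect telomere units in a row, counted on both strands with loci within 1000 bp joined. Of these, 178 (70.9%) overlapped a standard peak in at least 1 list and 154 in all 3. The share was 27.2% of 81 loci with 4 to 6 units in a row, 89.7% of 87 with 7 to 9 and 100% of 70 with 10 to 14. Of the 13 loci with 15 or more, 8 (61.5%) had a peak. The 5 without one, on chromosomes 2, 5, 11, 18 and X, all lie at the end of the known sequence, between 2 and 69 bp from its last known base. Of the 140 telomere-unit sites, 6 were within 1 Mb of the first or last known base of their chromosome and 24 within 5 Mb, with a median distance of 30.4 Mb. Outer bases that the reference leaves unknown do not enter these distances, which are therefore not distances to the chromosome end itself.

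**Figure D4:**
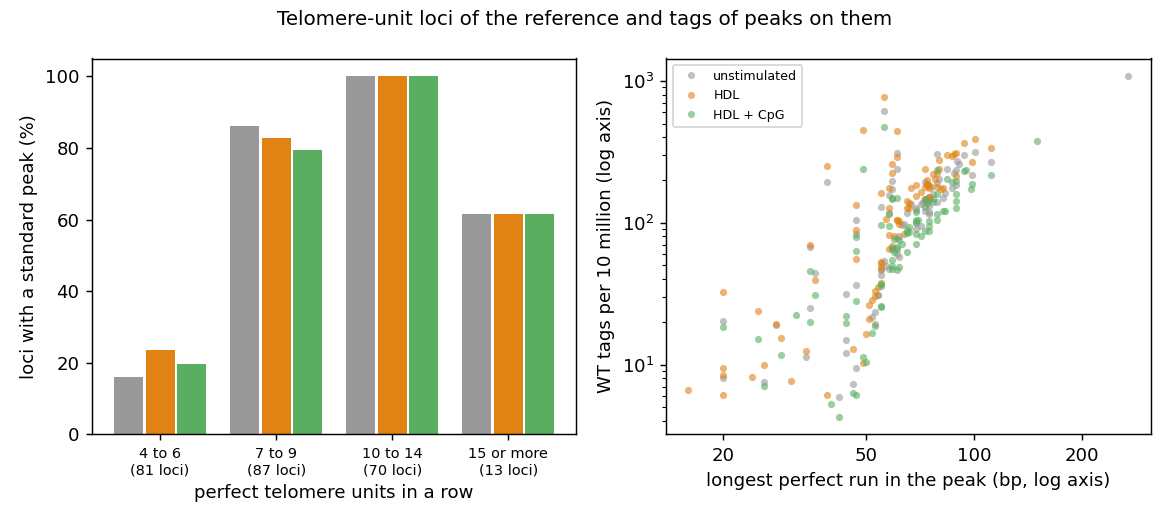
Left, share of reference loci with a standard peak (%) by the number of perfect telomere units in a row, for the 3 conditions; right, WT tags per 10000000 against the longest perfect stretch in the peak (bp), both on log axes. All 70 loci of 10 to 14 units have a peak in each list, and longer stretches go with more tags in each condition (Spearman's rho 0.793 to 0.805).

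Telomere-unit sites were spread over 21 chromosomes. Of 140 sites, 90 were intergenic, 50 intronic and 0 at promoters, with a median of 78.4 kb to the nearest start site and 12 within 10 kb. AP-1 sequences were rare near their centres, but this was not particular to the telomere unit. Of the peaks on other long units, 1.79%, 0% and 1.92% held one within 100 bp in unstimulated cells, with HDL and with HDL + CpG. Within 100 bp of the centre, on both strands, 1, 1 and 2 of the telomere-unit peaks held TGAGTCA or TGACTCA (1.22%, 1.16% and 2.38%), against 9.36%, 16.4% and 16.6% of all standard peaks and 25.6%, 21.5% and 38.7% of those that KOIN kept. TGACGTCA was found in 0 members, against 7, 37 and 25 of all standard peaks (0.252%, 0.696% and 0.66%). At shares this low, 0 among the members is no contrast. The telomere-unit peaks with an AP-1 sequence lay near Lrp1b, a lipoprotein receptor family gene (147 WT and 95.5 KO tags in unstimulated cells, 184 and 62.7 with HDL), and with HDL + CpG at 6030407O03Rik (150 and 166) and Gzmk, a granzyme gene (25.9 and 22.9). Their ratios, 1.54, 2.93, 0.907 and 1.13, lay within the range of the other telomere-unit peaks. The unstimulated and HDL peaks of the 6030407O03Rik site, both kept with ratios of 2.06 and 4.47, also span that AP-1 sequence. They are not counted, because their centres lie further from it. The AP-1 sequence is a match of letters and was not tested as a binding site.

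The other long units behaved less uniformly. Their median WT/KO was 1.58 (quartiles 1.23 and 2.14, n = 56) in unstimulated cells, 2.27 (1.49 and 2.92, n = 69) with HDL and 1.03 (0.873 and 1.18, n = 52) with HDL + CpG. Their median WT tags were 9.69, 10 and 10.1, close to the 11.6, 11.3 and 10.7 of all standard peaks. KOIN kept 14 of 56 (25%, 15.5 to 37.7%), 33 of 69 (47.8%, 36.5 to 59.4%) and 1 of 52 (1.92%, 0.34 to 10.1%). More WT reads were called at 28 (50%), 52 (75.4%) and 5 (9.62%) and more KO reads at 0, 2 and 2. Over all standard peaks the shares were 56.2%, 79.5% and 40.9% with more WT reads and 0.9%, 0.902% and 2.85% with more KO reads, so those with more WT reads in unstimulated cells and with HDL lay near them. With removed peaks set to a ratio of 1, these counts were 8, 16 and 0 with more WT reads and 8, 8 and 9 with more KO reads, where 16.9%, 29.4% and 34.2% and 12.6%, 8.69% and 7.92% of all standard peaks were called. Of 120 sites, 78 were intergenic, 42 intronic and 0 at promoters, at a median of 47.9 kb from a start site, and 43 had a peak in all 3 lists.

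**Figure D5:**
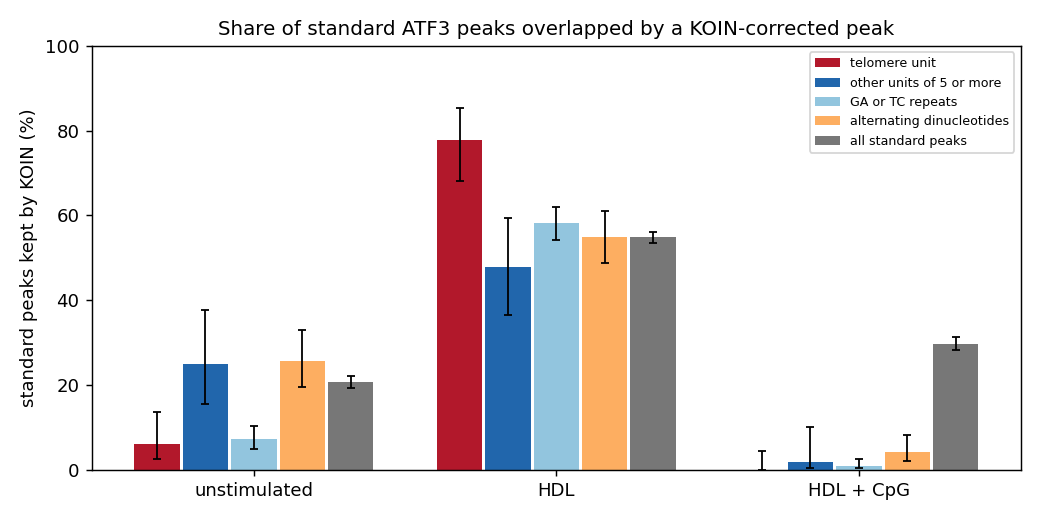
Share of standard peaks that a KOIN peak overlaps (%), by class and condition, with Wilson 95% intervals. The telomere unit has 6.1%, 77.9% and 0%, the other units of 5 or more letters 25%, 47.8% and 1.92%, and all standard peaks 20.7%, 54.9% and 29.7%.

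CAGAGA and GGAGA, rich in purines on one strand, were the most frequent of the other units. CAGAGA, or TCTCTG on the other strand, had 19, 16 and 11 peaks, of which KOIN kept 4, 8 and 1, with median ratios of 1.54, 2.52 and 1.16. GGAGA, or TCTCC, had 10, 16 and 10 peaks, with 2, 10 and 0 kept and median ratios of 1.58, 2.59 and 0.973. GGGAGA, or TCTCCC, had 5 unstimulated peaks with 4 kept and 5 HDL peaks with 1 kept. The shorter repeats of the same kind, GA or TC, had median ratios of 1.46 (n = 347), 2.38 (n = 609) and 0.941 (n = 359), and alternating dinucleotides 1.79, 2.32 and 1.07. With HDL + CpG, peaks on simple repeats of units under 5 letters had a median of 0.998, and peaks away from simple repeats one of 1.72.

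Among single sites of these units, 9430014N10Rik (TCTCC, chromosome 15) had 19.7 WT and 12.4 KO tags in unstimulated cells, 21.6 and 6.05 with HDL and 12.7 and 17.3 with HDL + CpG. Its ratios were 1.58, 3.57 (kept) and 0.738. D830032E09Rik, also TCTCC, had 8.62 and 6.22, then 16.1 and 4.39 (ratio 3.66, kept), then 6.67 and 10.7 tags. At 2310008N11Rik (GGGAGA, chromosome 8) the tags were 31.5 and 15.4 (2.05, kept), 30.1 and 10.3 (2.92, removed) and 25.3 and 26.1 (0.968, removed). The first-intron CAGAGA peak of Csf2rb2, a cytokine receptor gene, 0.769 kb from the start site, had 8.62 WT and 1.06 KO tags in unstimulated cells. Its ratio of 8.13 (3.67 to 20.4) was the highest of any member there with at least 20 WT reads, and it rested on 32 WT and 8 KO reads.

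The Csrp2 site (TCTTG, chromosome 10, 110348036 to 110349199, 8.59 kb from the start site of a LIM domain gene) was the one of the other units that looked most like the telomere unit in height and ratio. It had 90.2 WT and 58.5 KO tags in unstimulated cells, 117 and 31.2 with HDL and 78.4 and 84.2 with HDL + CpG. The ratios were 1.54 (1.33 to 1.78), 3.74 (3.16 to 4.43, kept) and 0.932 (0.808 to 1.07). The CAGCT site near Adam6b had 31.2 and 28.5, 27.9 and 12.4 (ratio 2.25, kept), and 15 and 14.9 tags. The CTAGGG site near 4931417E11Rik had ratios of 2.62 (15.6 WT and 5.96 KO tags, kept), 2.42 (15 and 6.21, kept) and 0.837 (13.8 and 16.4, removed).

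At the CACAG sites with the most tags, or CTGTG on the other strand, WT and KO tags were close in every condition. The 7, 10 and 8 peaks of this unit had median ratios of 1.02, 1.04 and 1.05, with ranges of 0.784 to 1.16, 0.668 to 2.06 and 0.512 to 1.16, and KOIN kept 0 of them. The largest lay in intron 1 of 4 of 2700054A10Rik (chromosome 17, 13742713 to 13746586) with 698 WT and 687 KO tags in unstimulated cells, 748 and 775 with HDL, and 688 and 634 with HDL + CpG. Zfp825 (chromosome 13) had 221 and 198, 240 and 237, and 213 and 203 tags. The site in intron 1 of 11 of Smo, the signal transducer of the Hedgehog pathway, had 137 and 135, 156 and 176, and 150 and 135 tags. Gm525 had 37.2 and 32.2, 49.3 and 46.6, and 34.4 and 38.9, and Aadac 16.4 and 18.1, 20.3 and 17.4, and 15.2 and 14.3. Tcp10c, a member of the HDL list only, had 79.9 and 84.5 tags there. Ratios at these 6 sites lay between 0.883 and 1.17 in the 3 conditions (Tcp10c with HDL only). Those of the telomere unit moved by a median of 2.95 times between HDL and HDL + CpG. Small differences were still called at sites with many reads. Zfp825 had more WT reads in unstimulated cells, 2700054A10Rik more WT reads with HDL + CpG, and Smo more KO reads with HDL.

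CACAG sites of fewer tags spread further. The highest ratio was that of the HDL peak near Il15, a cytokine gene, with 8.44 WT and 4.09 KO tags (2.06, more WT reads), which was named after its value was seen. Gm10007 had 12.7 and 16.1 (ratio 0.784), 17.9 and 12.3 (1.46), and 16.4 and 14.1 tags (1.16). A pair of CACAG sites near Gm6213 had the lowest ratios with stimulation, at 0.668 (13.4 and 20.1 tags, 0.474 to 0.929) with HDL for one and 0.512 (9.7 and 18.9, 0.353 to 0.735) with HDL + CpG for the other.

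Fat1 was the exception among the long units with HDL + CpG. The peak 251 kb from this protocadherin gene (chromosome 8, 45783808 to 45784837) is annotated with TTGGGG in the unstimulated list only, where 78.9 WT tags stood against 22.8 KO tags (ratio 3.47, 2.86 to 4.21). Its peaks in the other lists are annotated as intergenic, with 121 and 9.69 tags with HDL (12.5, 9.62 to 16.5) and 124 and 8.63 with HDL + CpG (14.4, 10.5 to 20.2), and KOIN kept it in all 3. WT tags at this site went up and KO tags down with stimulation, and its quotient between HDL + CpG and unstimulated cells was 4.14 (adjusted p = 9.95e-15, exact conditional test). The only member kept by KOIN with HDL + CpG was a peak near Gm10474 on the X chromosome, annotated with CAGAGA. It had 5.86 WT and 2.74 KO tags (ratio 2.14, 1.08 to 4.49, adjusted p = 0.0474, exact binomial test), 29 and 13 reads. The peak held 0 complete copies of the annotated unit on either strand. It is also 1 of the 2 other-unit peaks with an AP-1 sequence, the other being the unstimulated peak of the same site.

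At the far end of the range in tags lay 1 member near Fam172a (chromosome 13, 77577611 to 77578490), annotated with GTTTG with HDL + CpG and with the satellite GSAT_MM in the other lists. It had 7932 WT and 7017 KO tags in unstimulated cells, 8221 and 8242 with HDL, and 8078 and 8183 with HDL + CpG, ratios of 1.13, 0.998 and 0.987. It carries most of the sum over the 43 other-unit sites found in all 3 lists, whose ratio of sums was 1.14, 1.05 and 1, while their median ratio was 1.39, 2.27 and 0.987.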

How the data were processed

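ATF3 ChIP-seq peaks of BMDMs were taken from 3 standard and 3 KOIN lists. Per the submitters' processing notes, the authors used CASAVA 1.8, Bowtie 0.12.8, MACS 1.4.2 and HOMER 4.3 on mm9. Replicates were concatenated, reads with several matches were kept at 1 best position, and the knockout allele is not given in the sources used here. The score that the authors deposited for each peak comes from MACS. As signal, the authors deposited WT and KO tags per peak, scaled to 10000000 per library. The column with the WT/KO fold is the authors' own comparison and was not used.

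Reads were recovered from the totals in the deposited headers, and all tags lay within 0.005 of a whole number of reads. The 6 libraries hold 37137377 to 75534584 reads, with a median of 31 to 53 reads per standard peak, and this depth sets the intervals of the ratios. All 11888 standard peaks lie inside the NCBIM37 chromosomes, the assembly of mm9, from which sequences were read. The sequences of telomere-unit sites and of some other sites are not reported here.

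WT and KO reads were compared by a two-sided exact binomial test, ratios between conditions by a two-sided exact conditional test, both adjusted by Benjamini-Hochberg over all peaks or pairs of a comparison at 0.05 and tested on simulated data. Shares have Wilson intervals, ratios exact ones. Sites are overlapping peaks joined over the 3 lists, and distances are to the nearest start site in the lists. AP-1 and CRE sequences were counted within 100 bp of peak centres. As alternatives, peaks were limited to scores of at least 60 or 100, and results were recomputed with an overlap of 50%, units of at least 4 or 6 letters, autosomes only, merging within 1000 bp, a pseudocount of 1 tag, a window of 50 bp, another scaling, and sites with a peak in all 3 lists, which was chosen after seeing the data.

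Named telomere-unit sites are the 6 with the most WT tags and those KOIN kept, of which the 67 with HDL are given by counts and ranges. For other units the rule takes, per condition, the 5 peaks with the most WT tags, the 5 highest and the 3 lowest ratios among peaks of at least 20 WT reads, and the 12 sites with a peak in all 3 conditions with the most WT tags, of which those that add to the text are named. Members and lists were chosen with earlier results of these data known. All steps ran in Python 3.11.15 (scipy 1.17.1, numpy 2.4.6, matplotlib 3.10.9, pandas 2.3.3).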

Additional observations from a re-analysis of the deposited data

Results flagged for a closer look

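At the sites named by the rule, 27 had a WT/KO ratio that differed between a pair of conditions by the exact conditional test. The test was adjusted over all shared peaks, and for each site the largest quotient that passed is given. Some sites, such as D830032E09Rik, Lmo2 and Gm5088, were named for a high or low ratio in 1 condition. Others were named because KOIN, which filters on this ratio, kept them. At such sites the choice itself favours a difference between conditions, and the test cannot separate the difference from the choice. With 1 pooled library per group no sample could be compared with its replicates. At all 10 named telomere-unit sites that had a peak in the 3 lists, the quotient was HDL over HDL + CpG, at 4.93 for 6030407O03Rik, 3.79 for Ppp1r9a, 3.66 for Galnt5, 3.63 for Cdh12, 2.97 for G530011O06Rik, 2.97 for Lphn2, 2.89 for Agxt2l2, 2.75 for Gm3376, 2.72 for 4930529K09Rik and 2.69 for Map2k6.

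Among the other units, HDL over HDL + CpG gave 5.9 for D830032E09Rik, 4.84 for 9430014N10Rik and 4.34 for 4930406D18Rik (all TCTCC), 4.01 for Gm16063 and 3.84 for Ccdc83 (both TCTCTG), 4.01 for Csrp2, 3.02 for 2310008N11Rik and 2.25 for Adam6b. HDL over unstimulated cells gave 3.14 for Lmo2 and 1.87 for Gm10007. Unstimulated cells over HDL + CpG gave 3.13 for 4931417E11Rik, 3.06 for Gm5088, 2.16 for a CACAG site near Gm6213 and 1.15 for Fam172a. The direction was the opposite of the telomere unit at 3 sites. HDL + CpG over unstimulated cells gave 4.14 for Fat1, and HDL + CpG over HDL gave 1.25 for Smo and 1.12 for 2700054A10Rik. The causes were not tested.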

How the results depend on the processing

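No paired analysis was possible because each group is 1 pooled library, and for the same reason no replicate could be left out. Of 102 alternatives to 27 results, 79 left the value within its error and 23 moved it. With removed peaks scaled to a ratio of 1, the share of telomere-unit peaks with more WT reads moved to 40.2%, 84.9% and 0% in unstimulated cells, HDL and HDL + CpG, and that of the other units to 14.3%, 23.2% and 0%. With scores of at least 60 or 100, more WT reads were called at 0% of telomere-unit peaks with HDL + CpG. A minimum of 60 gave 3.03% of other units with HDL + CpG, and one of 100 gave 50% of other units with HDL and 87.9% of telomere-unit peaks kept with HDL. Units of 6 or more letters other than the telomere unit were kept at 39.3% in unstimulated cells and had more WT reads at 88.5% with HDL. Sites in all 3 lists, an alternative chosen after seeing the data, gave 14% of other units kept in unstimulated cells, and autosomes alone 0% with HDL + CpG. The median ratio of all members without the telomere unit was 1.58 in unstimulated cells and 2.27 with HDL, and a pseudocount of 1 tag gave 2.02 for other units with HDL. In a window of 50 bp, AP-1 sequences were found in 0% of both classes in unstimulated cells and with HDL + CpG, and of the telomere unit with HDL. The causes were not tested. Peaks with few reads limit the other units, whose median was about 10 WT tags.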
